A study of Mus musculus with 12 samples.

Results

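Skeletal muscle genes were followed in subcutaneous AB1-HA tumours. AB1-HA is a mesothelioma cell line of the mouse that was given the haemagglutinin of influenza virus, so that T cells against a known antigen can be followed. The 32 genes encode parts of the sarcomere, the calcium handling machinery and the energy metabolism of muscle fibres, and were picked by symbol from the 35999 gene names of the table. All 32 were present, each with 1 gene identifier, and all 32 had enough counts to be tested, among 17940 genes tested. All hosts were male BALB/c mice aged 8 to 10 weeks. The anti-CD4 group of 6 tumours came from mice given 100 µg of an antibody that removes CD4 T cells on days -3, 0 and 7 around tumour inoculation, and the PBS group of 6 tumours came from mice given the vehicle on the same days. Tumours were harvested on day 9. AB1-HA is a single cell line and no label ties a tumour to an animal, so p-values measure the spread between these 12 tumours. Whole tumours were homogenised, so fewer muscle cells and less RNA per muscle cell cannot be told apart in any value given here.

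A skeletal muscle fibre contracts when myosin heads of the thick filament pull on actin of the thin filament. Calcium, released from the sarcoplasmic reticulum by the ryanodine receptor and pumped back by a calcium ATPase, permits this by binding troponin C on the thin filament. Fast and slow fibres use different genes for the same parts: Myh4, Myh1 and Myh2 are the heavy chains of fast fibres and Myh7 that of slow fibres, and each troponin subunit has a fast and a slow form. In mice a thin sheet of skeletal muscle, the panniculus carnosus, lies beneath the skin of the trunk. Among the members, 13 were counted as fast fibre genes, 5 as slow fibre genes (Myh7, Mybpc1, Tnnc1, Tnni1 and Tnnt1), and 14 are used by both fibre types or were not assigned.

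Many muscle promoters carry an E-box, the hexamer bound by MyoD and its relatives, and sites for MEF2 and for serum response factor, which binds the CArG box. Of the 32 members, 28 matched a RefSeq promoter of build GRCm38.p6, and with several starts for some genes this gave 33 windows of 300 bases, 250 before and 50 after the annotated start. Both strands were searched in these and in all 32851 windows of the mouse set. The E-box form CAGCTG, which is also counted within the general form CANNTG, stood in 17 of 33 muscle windows (51.5%), against 16.3% of all windows. The general form stood in 28 of 33 (84.8%), against 72.3% of all windows. TATAAA stood in 7 (21.2%) against 13.6%, the MEF2 consensus in 5 (15.2%) against 3.2%, and the CArG box in 2 (6.1%) against 1.6%. In 2 muscle windows the MEF2 match overlapped TATAAA. Among the genes with CAGCTG were Acta1, Atp2a1, Ckm, Des, Mylpf, Casq1 and Cacna1s, and also the slow genes Mybpc1 and Tnni1. A match describes letters in a window and is not a measured site.

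Below are the promoters of the members with the highest mean level that matched, Ttn, Acta1 and Atp2a1, and of the fast and slow myosins Myh4 and Myh7, whose levels stood furthest apart among the myosins. They run 5′ to 3′ in the direction of transcription. Capitals mark the E-box form CAGCTG, the hexamer TATAAA on either strand and at any position, and the MEF2 and CArG matches.
Ttn promoter, chr2:76982498-76982797, minus strand: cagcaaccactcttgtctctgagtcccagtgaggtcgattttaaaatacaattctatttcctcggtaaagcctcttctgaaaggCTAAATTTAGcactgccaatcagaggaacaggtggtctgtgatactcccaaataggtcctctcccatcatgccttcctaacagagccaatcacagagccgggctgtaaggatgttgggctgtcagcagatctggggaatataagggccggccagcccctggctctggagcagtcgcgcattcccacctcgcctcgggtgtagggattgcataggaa
Acta1 promoter, chr8:123894726-123895025, minus strand: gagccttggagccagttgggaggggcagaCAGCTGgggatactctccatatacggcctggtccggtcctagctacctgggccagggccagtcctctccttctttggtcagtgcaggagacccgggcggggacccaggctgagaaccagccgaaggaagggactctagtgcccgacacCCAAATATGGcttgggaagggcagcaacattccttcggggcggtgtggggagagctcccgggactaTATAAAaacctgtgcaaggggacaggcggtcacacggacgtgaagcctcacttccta
Atp2a1 promoter, chr7:126463024-126463323, minus strand: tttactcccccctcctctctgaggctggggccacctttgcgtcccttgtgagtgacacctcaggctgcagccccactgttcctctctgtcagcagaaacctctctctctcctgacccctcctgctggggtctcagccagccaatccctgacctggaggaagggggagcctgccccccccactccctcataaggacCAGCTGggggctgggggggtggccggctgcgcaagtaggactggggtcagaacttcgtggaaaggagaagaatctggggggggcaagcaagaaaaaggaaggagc
Myh4 promoter, chr11:67237562-67237861, plus strand: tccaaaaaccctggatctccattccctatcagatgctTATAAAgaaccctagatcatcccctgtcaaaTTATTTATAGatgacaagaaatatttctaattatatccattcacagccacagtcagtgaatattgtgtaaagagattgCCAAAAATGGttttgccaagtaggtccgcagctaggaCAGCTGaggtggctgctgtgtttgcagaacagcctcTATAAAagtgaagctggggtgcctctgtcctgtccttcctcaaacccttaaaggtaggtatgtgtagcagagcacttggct
Myh7 promoter, chr14:54994577-54994876, minus strand: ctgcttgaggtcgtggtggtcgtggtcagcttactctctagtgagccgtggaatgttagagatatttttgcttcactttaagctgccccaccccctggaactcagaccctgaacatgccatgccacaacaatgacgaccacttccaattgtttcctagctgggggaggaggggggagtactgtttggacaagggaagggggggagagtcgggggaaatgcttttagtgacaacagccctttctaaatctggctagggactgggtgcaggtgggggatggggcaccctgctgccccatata
Counted from the annotated start, CAGCTG began at -221 in Acta1, -55 in Atp2a1 and -67 in Myh4. The Ttn window held a MEF2 match at -166 and no CAGCTG. Myh4 held every kind of capital motif, with MEF2 at -182, CArG at -104 and TATAAA at -213, -179 and -31. The Myh7 window shown, the first of 2 for that gene, held only general E-boxes, which are not capitalised. Ryr1, next after Atp2a1 in mean level among the matched members, held none of the motifs searched, and its window is not shown.

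Each tumour gave 30.75 to 62.06 M estimated counts (34.45 to 62.06 M in anti-CD4 tumours and 30.75 to 41.93 M in PBS tumours), and levels are given as CPM, counts scaled by library size, after TMM scaling. Cd4, which marks the cells the antibody removes, was at 0.631 to 2.12 CPM in anti-CD4 tumours and at 4.36 to 9.92 CPM in PBS tumours, which is -2.26 as a log2 fold change, anti-CD4 over PBS (SE 0.28, adjusted p = 0.00298 in edgeR). The mesothelial gene Msln was at 92.5 to 155 CPM in anti-CD4 tumours and at 94.7 to 140.0 CPM in PBS tumours. Of 6 other mesothelial or epithelial genes looked at, Pdpn was at 32.1 to 37.5 CPM in anti-CD4 tumours and at 24.6 to 30.01 CPM in PBS tumours, and Krt8 was at 0.974 to 6.74 CPM in anti-CD4 tumours and at 1.59 to 3.13 CPM in PBS tumours. Wt1 was at 1.09 to 1.94 CPM in anti-CD4 tumours and at 1.23 to 2.14 CPM in PBS tumours, and Upk3b, Krt18 and Krt19 were under 2 CPM in all 12. No label gives a batch. The counting shares reads among similar transcripts, and 48.2% of the members' values were not whole numbers (tolerance 0.01). Myh1, Myh2, Myh4, Myh7, Acta1, Atp2a1 and Tnnc1 were among the 11 members not whole in any tumour, so the split of reads between these genes and others is uncertain. Which genes share the reads, near copies or overlapping genes, is not given. Exons of 16 members overlap another gene on the opposite strand, in 20 overlaps of 45 to 1309 bases. Whether strand was used in counting is not stated, so reads there cannot be told apart. The longest are Cacna1s with Gm37759 (1309 bases), Ryr1 with Gm26604 (864), Atp2a1 with Rabep2 (763), Tnnc2 with Ube2c (592), Myh7 with Gm31251 (523) and Myh1 with Myhas (515).

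Muscle RNA differed several-fold between tumours of the same group. The 32 genes together took 5686, 1455, 3481, 6476, 1464 and 1936 CPM in anti-CD4 tumours 1 to 6, and 1346, 3301, 1189, 4767, 7485 and 1377 CPM in PBS tumours 1 to 6. Anti-CD4 tumours 1, 3 and 4 and PBS tumours 2, 4 and 5 stood high, at 3301 to 7485 CPM, and the other 6 tumours stood at 1189 to 1936 CPM, so each group held 3 high and 3 low tumours. As a share of the library, the members made up 0.138% to 0.629% of counts in anti-CD4 tumours and 0.125% to 0.780% in PBS tumours. The group means of the sum were close, 3416 ± 2208 CPM in anti-CD4 tumours and 3244 ± 2515 CPM in PBS tumours (SD, n = 6 each), 1.05-fold or 0.07 on the log2 scale, far within the spread of either group. Medians were 2709 CPM in anti-CD4 tumours and 2339 CPM in PBS tumours. Ttn, titin, alone supplied 41.6% to 59.7% of the members' counts, in part because its exons cover 117 kb. Without Ttn the sum was 1665 ± 1002 CPM in anti-CD4 tumours and 1422 ± 1029 CPM in PBS tumours.

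**Figure D1:**
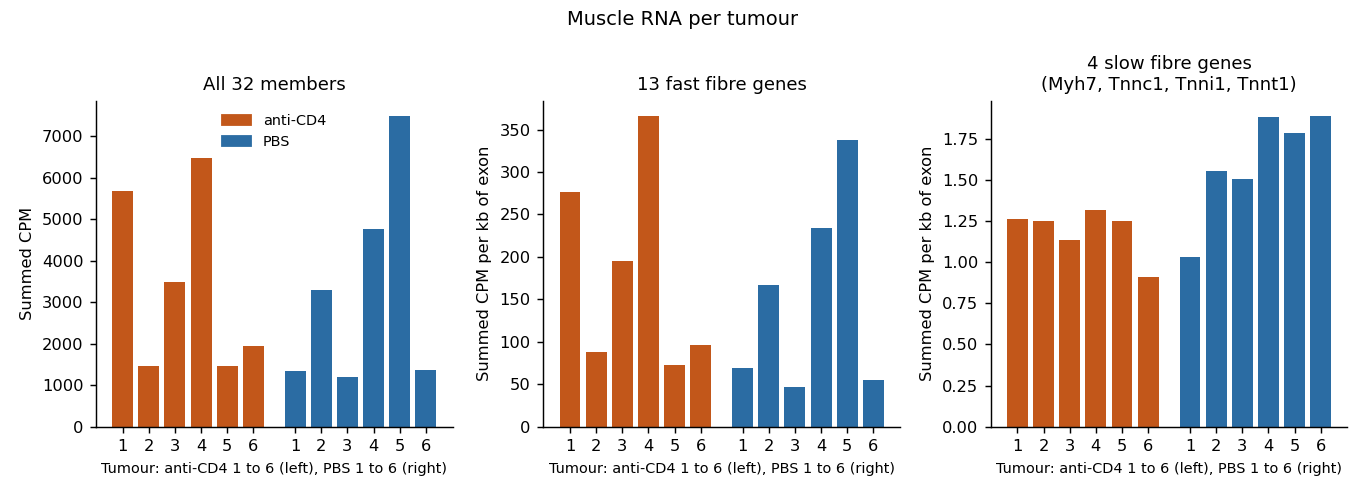
Each bar is 1 tumour, anti-CD4 1 to 6 on the left and PBS 1 to 6 on the right, with the summed CPM of all 32 members (left panel) and the summed CPM per kilobase of exon of the 13 fast genes (middle) and of 4 slow genes without Mybpc1 (right). In the sum over the 32 members, anti-CD4 tumours 1, 3 and 4 and PBS tumours 2, 4 and 5 stand at 3301 to 7485 CPM and the rest at 1189 to 1936 CPM.

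The members followed the same tumours. For 27 of the 32 genes those 6 tumours were the 6 highest; the 5 exceptions were Mb and the slow genes Myh7, Tnnc1, Tnni1 and Tnnt1. Anti-CD4 tumour 4 was the highest tumour for 18 genes and PBS tumour 5 for 10, and these were the top pair for 23 genes. PBS tumour 3 was the lowest for 22 genes. All genes here share each tumour's library, so their common order is a single observation per tumour and not 32.

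**Figure D2:**
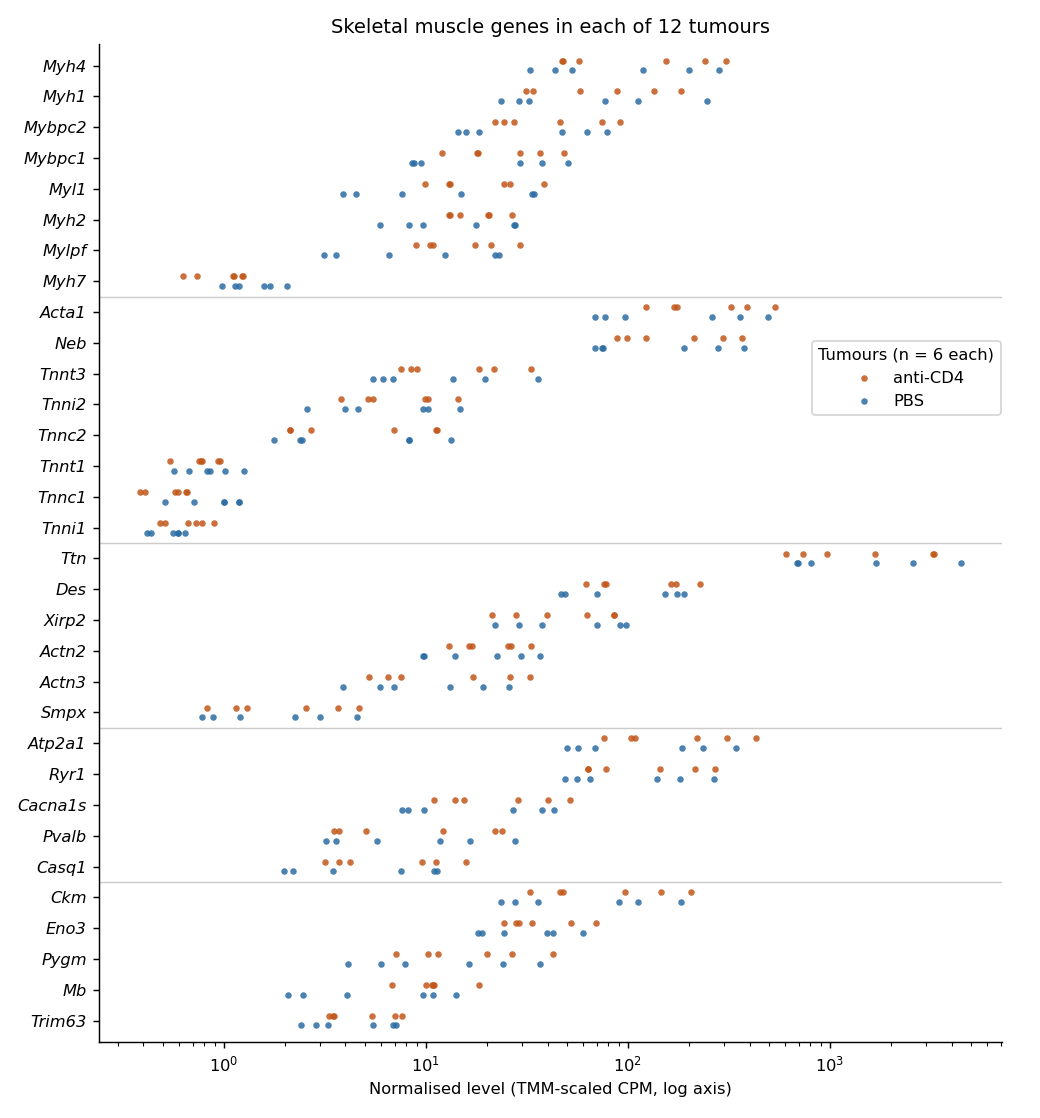
Each point is the level of 1 gene in 1 tumour, in TMM-scaled CPM on a log axis, with genes grouped by role and anti-CD4 and PBS tumours in different colours. The groups overlap for all 32 genes (the share over all genes is not given here), and the slow genes Myh7, Tnnc1, Tnni1 and Tnnt1 sit at the bottom of the scale with narrow spreads.

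Marker genes of fat, nerve and skin were summed as well, and no label gives the origin of the muscle RNA. The 12 adipocyte genes summed to 436, 100.2, 139, 908, 265 and 108 CPM in anti-CD4 tumours 1 to 6 and to 268, 221, 206, 261, 570.3 and 290.2 CPM in PBS tumours 1 to 6. Anti-CD4 tumours 4 and 1 and PBS tumour 5, high in muscle RNA, were the 3 highest, whereas anti-CD4 tumour 3, also high in muscle RNA, was among the 3 lowest. PBS tumours 2 and 4, also high in muscle RNA, lay below PBS tumour 6, which was low in it. The sum includes Car3, also a muscle gene, at 341 CPM in anti-CD4 tumour 4 and 187 CPM in PBS tumour 5. The defining adipocyte gene Adipoq, the hormone adiponectin, was at 0.187 to 29.5 CPM in anti-CD4 tumours and at 2.51 to 13.7 CPM in PBS tumours. The 8 peripheral nerve genes summed to 126 to 276 CPM in anti-CD4 tumours and to 119.7 to 228 CPM in PBS tumours, with anti-CD4 tumour 4 and PBS tumour 4 highest. The 10 skin epithelium genes summed to 3.24 to 6.16 CPM in anti-CD4 tumours and to 3.12 to 4.09 CPM in PBS tumours, and Krt1 was at 0 in all 12. The part of any neighbouring tissue in the muscle values was not tested.

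The spread of the muscle genes between tumours of a group was wide beside that of all genes tested, but not the widest. The within-group SD of log2 CPM had a median of 0.986 over the 32 members, against 0.194 over all 17940 genes tested, and all 32 members lay above that overall median. For the 11 adipocyte genes tested the median was 1.32. The 90th percentile of all genes was 0.593, and 28 of 32 members exceeded it. Highest were Pvalb, a calcium buffer of fast fibres, at 1.25, Myh4 at 1.25 and Myh1 at 1.19. The 13 fast genes ran from 0.723 to 1.25, with Myh2 lowest, and the 14 others from 0.609 (Trim63) to 1.14 (Ckm). The 4 members below the 90th percentile were all slow genes, Myh7 at 0.400, Tnnc1 at 0.388, Tnnt1 at 0.338 and Tnni1 at 0.282, while the slow gene Mybpc1 stood at 0.987. In fold terms, the highest tumour exceeded the lowest by 4.67 to 10.51 times for fast genes and by 2.15 to 3.29 times for these 4 slow genes. These 4 had the fewest counts of the members, down to 14 in a tumour. The log2 scale adds a prior count of 2, which narrows the spread of weak genes, whereas the folds carry no prior. Counting noise, larger at few counts, widens both measures and was not separated from differences between tumours.

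**Figure D3:**
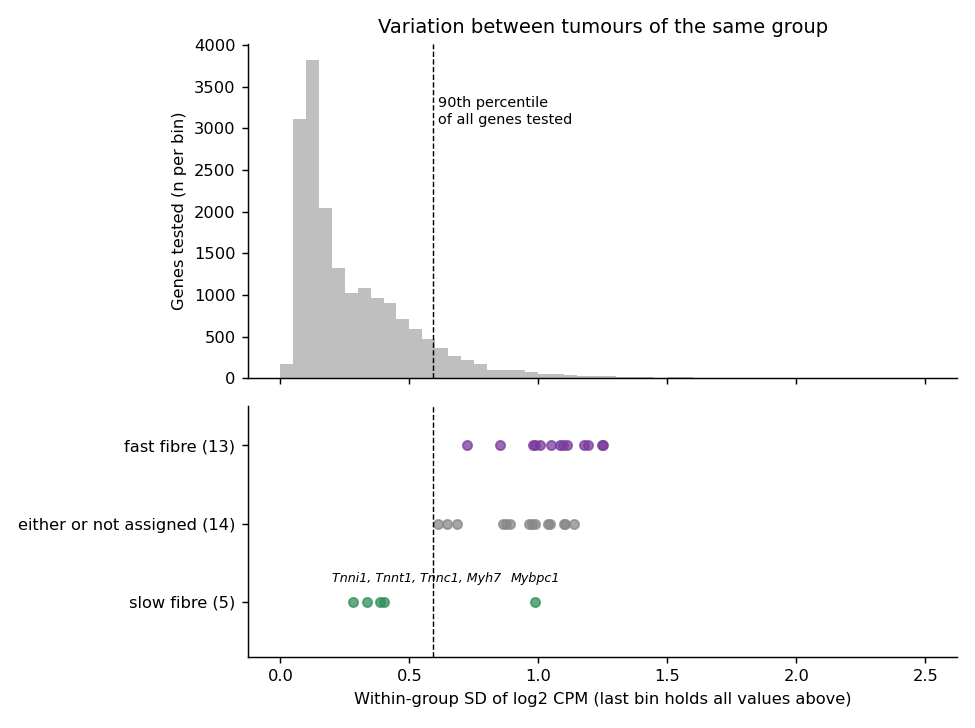
The upper panel counts all genes tested by their within-group SD of log2 CPM, and the lower panel places the 32 members by fibre type, with a dashed line at the 90th percentile of 0.593. The fast and unassigned genes all lie right of the line, and of the slow genes only Mybpc1, at 0.987, does.

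In every tumour the fast forms of the myosin heavy chains and troponins stood above the slow forms, as did the summed fast list. Single genes did not all follow: slow Mybpc1 averaged 5.64 CPM per kilobase over the 12 tumours, and fast Myh2 averaged 2.40. The myosin heavy chains were compared per kilobase of merged exons. These cover 6.02 kb for Myh4 and 8.62 kb for Myh7, and the shares depend on such lengths. Myh4, the chain of the fastest fibres, made up 55.7% ± 6.4 of the 4 chains in anti-CD4 tumours and 55.8% ± 2.9 in PBS tumours (SD, n = 6 each). Myh1 followed at 35.4% ± 4.5 in anti-CD4 tumours and 35.7% ± 4.3 in PBS tumours. Myh2, of fast oxidative fibres, stood at 8.43% ± 3.90 in anti-CD4 tumours and 7.78% ± 2.86 in PBS tumours. Myh7, the slow chain, stood at 0.473% ± 0.354 in anti-CD4 tumours and 0.759% ± 0.521 in PBS tumours. Every one of these differences was smaller than the SD of either group, and the order Myh4, Myh1, Myh2, Myh7 held in all 12 tumours.

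The shares were not constant between tumours. Myh2 took 13.8% and 12.03% of the chains in anti-CD4 tumours 2 and 5, which were low in muscle RNA, and 4.42% and 4.48% in anti-CD4 tumours 1 and 4, which were high. In the PBS group it took 2.81% in tumour 5, the highest in muscle RNA, but 10.9% in tumour 2, which was also high. Myh1 came nearest to Myh4 in anti-CD4 tumour 6 (44.4% against 46.2%) and in PBS tumour 5 (43.8% against 53.2%). Myh2, Myh1 and Myh4 lie side by side on chromosome 11, at chr11:67171027-67197517, chr11:67200052-67224575 and chr11:67238029-67260446 on the plus strand, and Myh7 lies at chr14:54970684-54994626 on the minus strand (GENCODE M21, GRCm38).

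**Figure D4:**
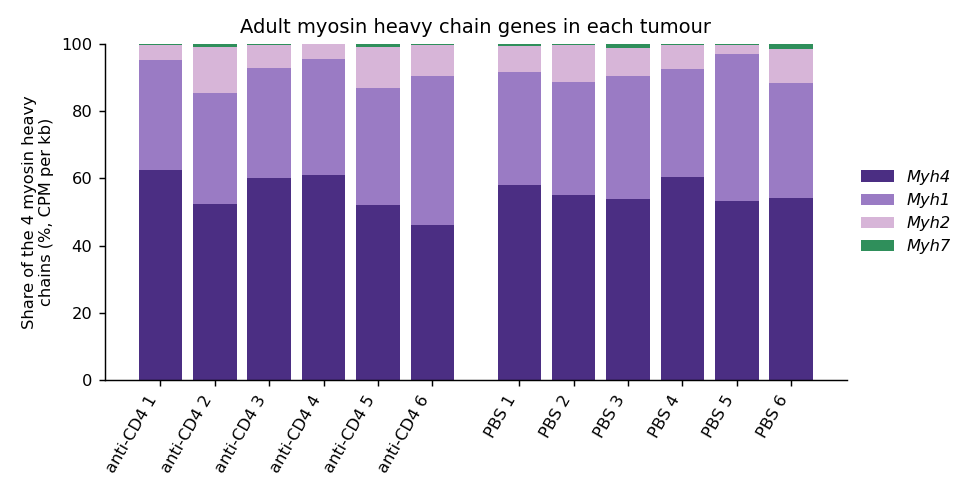
Stacked bars give the share of Myh4, Myh1, Myh2 and Myh7 among the 4 heavy chains in each tumour, in percent of summed CPM per kilobase, anti-CD4 1 to 6 left of PBS 1 to 6. Myh4 is the largest share in all 12 tumours and Myh7 stays at 1.47% or less.

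Summed over the lists, fast genes stood at 276, 88.3, 196, 366, 73.0 and 96.4 CPM per kilobase in anti-CD4 tumours 1 to 6 and at 69.5, 166, 46.6, 234, 338 and 55.4 CPM per kilobase in PBS tumours 1 to 6. Slow genes stood at 3.91 to 12.02 CPM per kilobase in anti-CD4 tumours and at 3.11 to 12.96 in PBS tumours. The log2 ratio of fast to slow averaged 4.52 ± 0.36 in anti-CD4 tumours and 4.29 ± 0.38 in PBS tumours (SD, n = 6 each), a difference of 0.23 that was smaller than either SD. These are sums over 13 fast and 5 slow genes, so the size of the ratio depends on the length of the lists. It is not a measure of fast against slow fibre content. Mybpc1, myosin binding protein C of slow fibres that fast fibres also express, supplied most of the slow sum. Without it the slow sum was 1.26, 1.25, 1.14, 1.32, 1.25 and 0.908 CPM per kilobase in anti-CD4 tumours 1 to 6 and 1.03, 1.55, 1.51, 1.88, 1.79 and 1.89 in PBS tumours 1 to 6. In this narrower sum the anti-CD4 tumours averaged 1.19 ± 0.15 and the PBS tumours 1.61 ± 0.33, PBS tumour 1 lay among the anti-CD4 values, and the log2 ratio of fast to slow averaged 7.01 ± 0.91 in anti-CD4 tumours and 6.20 ± 1.10 in PBS tumours (SD, n = 6 each). The difference of 0.81 was again smaller than either SD. That sum was chosen after the values were seen and carries no test.

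The troponins gave the same picture gene by gene. Tnni2, fast troponin I, exceeded Tnni1, the slow form, 17.9 to 38.6 times per kilobase in anti-CD4 tumours and 11.1 to 55.7 times in PBS tumours. Tnnc2, fast troponin C, exceeded slow Tnnc1 4.20 to 25.5 times in anti-CD4 tumours and 2.31 to 17.3 times in PBS tumours. The lowest of these ratios came from tumours low in muscle RNA, anti-CD4 tumours 2 and 5 and PBS tumours 3 and 6 for troponin C. Of the 0.8 kb of Tnnc2 exons, 592 bases overlap Ube2c on the opposite strand, so its level is uncertain.

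No member differed between anti-CD4 and PBS tumours at an adjusted p under 0.05. The edgeR quasi-likelihood test, adjusted over all 17940 genes, called 947 genes (5.28%), 529 higher and 418 lower in anti-CD4 tumours, and 0 of the 32 members. At an unadjusted p under 0.05 it gave 2 members (Tnnc1 and Myh7), against 28% of all genes, and DESeq2 also called 0 members. Of the 32 log2 fold changes 27 were positive, with a median of 0.17 against 0.00 over all genes, of which 49.9% were positive. Since the members share the tumours, this count rests on few libraries: it was 8 without anti-CD4 tumour 4, 16 without PBS tumour 3, 17 without PBS tumour 1 and 16 with limma voom. Values of the anti-CD4 and PBS tumours overlapped for all 32 members. The share of all genes tested that overlap in this way is not given here, so the count is not a trait of the members.

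**Figure D5:**
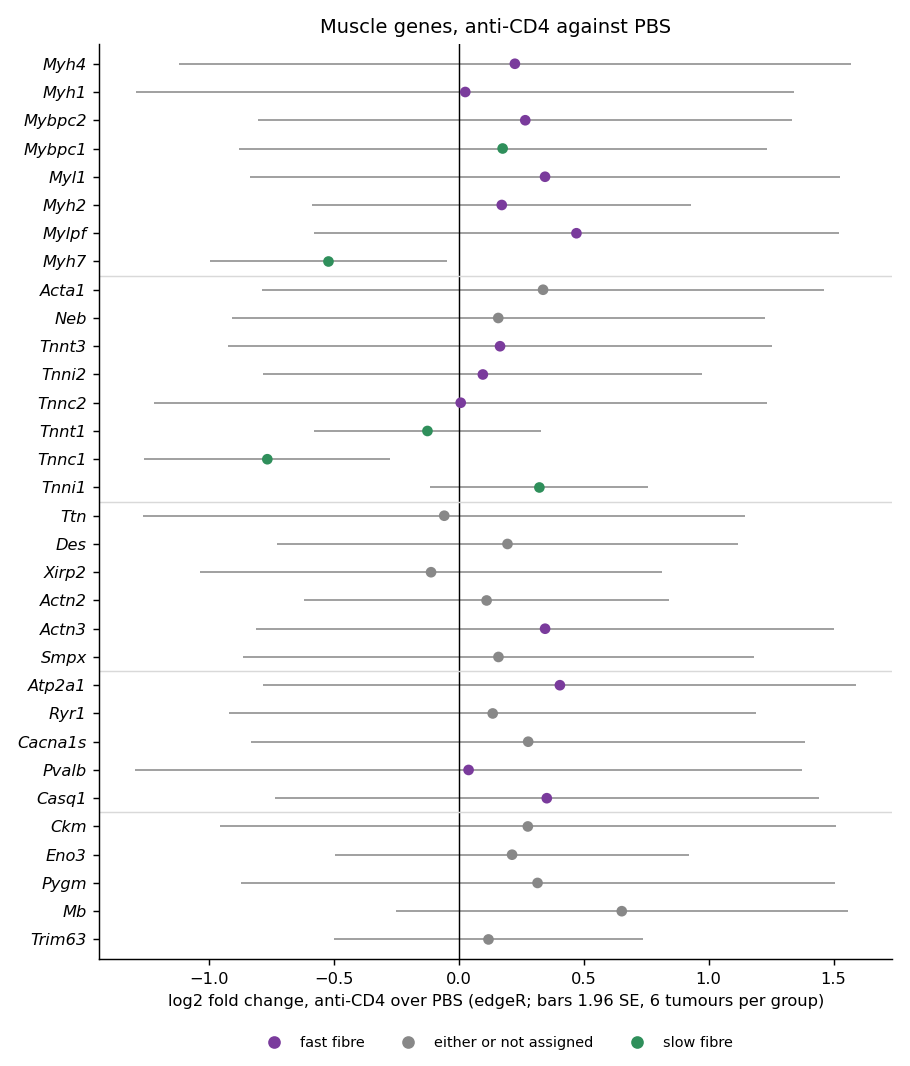
Points are edgeR log2 fold changes of the 32 members, anti-CD4 over PBS, ordered by role, and bars are 95% intervals (6 tumours per group). All bars cross 0 except those of Myh7 and Tnnc1, whose adjusted p-values are 0.174 and 0.0771.

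Among the thick filament genes, Myh4 ran from 46.9 to 306 CPM with a median of 105 in anti-CD4 tumours and from 32.6 to 282 CPM with a median of 85.7 in PBS tumours. The groups lay over each other, and the log2 fold change was 0.23 (SE 0.68, with an adjusted p of 0.852). Myh1 had a median of 73.1 CPM in anti-CD4 tumours and of 54.5 CPM in PBS tumours, and a log2 fold change of 0.03. Mylpf, a regulatory light chain of fast fibres, had the largest positive fold change of the group, 0.47 (SE 0.54), at 8.92 to 29.1 CPM in anti-CD4 tumours and 3.13 to 23.1 CPM in PBS tumours. Anti-CD4 tumour 4 was again the highest and PBS tumour 3 the lowest. The fast light chain Myl1 was at 9.94 to 38.4 CPM in anti-CD4 tumours and at 3.88 to 34.4 CPM in PBS tumours, with a fold change of 0.35 on the log2 scale, as in the parentheses that follow. Mybpc2, the myosin binding protein C of fast fibres, was at 22.0 to 90.9 CPM in anti-CD4 tumours and at 14.4 to 79.1 CPM in PBS tumours (0.27). Its slow relative Mybpc1 was at 12.04 to 48.5 CPM in anti-CD4 tumours and at 8.50 to 50.6 CPM in PBS tumours (0.18). Both binding proteins thus covered a several-fold range in each group. Myh2 was at 13.1 to 26.8 CPM in anti-CD4 tumours and at 5.94 to 27.7 CPM in PBS tumours (0.17), the narrowest range of the fast chains. Slow Myh7 was the only thick filament gene with a negative fold change, at 0.6254 to 1.24 CPM with a median of 1.11 in anti-CD4 tumours and at 0.977 to 2.06 CPM with a median of 1.39 in PBS tumours. Its lowest tumour was anti-CD4 tumour 4, the tumour in which Myh4 was highest, and its log2 fold change was -0.52 (SE 0.24, unadjusted p = 0.0479, adjusted p = 0.174).

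The thin filament held the member with the smallest p. Tnnc1, slow troponin C, at chr14:31208312-31211729 on the plus strand with 6 exon blocks, was at 0.387 to 0.659 CPM with a median of 0.585 in anti-CD4 tumours and at 0.514 to 1.19 CPM with a median of 1.001 in PBS tumours. PBS tumour 1, at the bottom of its group, fell among the anti-CD4 tumours. The log2 fold change was -0.77 (SE 0.25, unadjusted p = 0.00837, adjusted p = 0.0771), on 14.4 to 46.4 counts per tumour. It was called by limma voom with sample weights (-0.79, adjusted p = 0.0144) and by edgeR without PBS tumour 1 (-0.88, adjusted p = 0.0272) and by no other setting tried, while a filter of 1 CPM in 6 tumours removed it. Those settings also called the most genes of any, 6048 with limma voom and 2640 without PBS tumour 1, against 947 in the main fit. Over all settings the adjusted p of Tnnc1 ran from 0.0144 to 0.514. Tnnc1 is also the troponin C of heart muscle, as Myh7 is a heavy chain of heart muscle. The heart list gave 0 called of 6 tested, with 5 of 6 fold changes negative. Its troponin T gene Tnnt2 gave -0.76 (adjusted p = 0.0507), while the heart genes Myh6 and Myl7 had at most 2 counts in any tumour. Genes as near the threshold also went the other way. Outside the members and the heart list, Casq2 gave 0.92 (adjusted p = 0.0693) and the receptor subunit gene Chrna1 gave 0.54 (adjusted p = 0.0632).

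For the other thin filament genes the tumours of both groups covered much the same range. Acta1, skeletal muscle actin, was the strongest member per length, averaging 167 CPM per kilobase, and ran from 124 to 535 CPM with a median of 249 in anti-CD4 tumours and from 68.5 to 496 CPM with a median of 178 in PBS tumours. The groups overlapped widely, and its log2 fold change of 0.34 had a 95% interval of -0.79 to 1.46. Neb, nebulin, the ruler of the thin filament, was at 87.9 to 367 CPM in anti-CD4 tumours and at 68.9 to 374 CPM in PBS tumours, a fold change of 0.16. Of the fast troponins, which switch the filament on and off, Tnnt3 was at 7.52 to 33.1 CPM in anti-CD4 tumours and at 5.47 to 36.0 CPM in PBS tumours (0.17). Tnni2 was at 3.8 to 14.4 CPM in anti-CD4 tumours and at 2.59 to 14.8 CPM in PBS tumours (0.10). Tnnc2 was at 2.12 to 11.3 CPM in anti-CD4 tumours and at 1.78 to 13.3 CPM in PBS tumours (0.01). All 3 were highest in PBS tumour 5 and lowest in PBS tumour 3. The slow forms kept within a narrow band. Tnni1 was at 0.485 to 0.895 CPM in anti-CD4 tumours and at 0.417 to 0.639 CPM in PBS tumours (0.32, SE 0.22, adjusted p = 0.348), the opposite direction to slow Tnnc1. Tnnt1 was at 0.540 to 0.956 CPM in anti-CD4 tumours and at 0.566 to 1.255 CPM in PBS tumours (-0.12).

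In the Z-disc and cytoskeleton group, Ttn, the giant protein that spans the sarcomere from Z-disc to M-line (chr2:76703980-76982547, minus strand, 345 exon blocks), ran from 604 to 3270 CPM with a median of 1323 in anti-CD4 tumours and from 685 to 4469 CPM with a median of 1249 in PBS tumours. It ranked 22 by mean CPM among all genes, and its log2 fold change was -0.06 (95% interval -1.26 to 1.15). Unlike most members it was lowest in anti-CD4 tumour 2. Des, desmin, the intermediate filament that links neighbouring Z-discs, was at 62.1 to 229 CPM in anti-CD4 tumours and at 46.6 to 189 CPM in PBS tumours (0.20). Xirp2, an actin binding protein at the ends of myofibrils, was at 21.3 to 85.1 CPM in anti-CD4 tumours and at 22.0 to 97.8 CPM in PBS tumours (-0.11). The actinins anchor thin filaments at the Z-disc. Actn2 was at 13.1 to 33.3 CPM in anti-CD4 tumours and at 9.63 to 36.6 CPM in PBS tumours (0.11), and Actn3, the form of fast fibres, was at 5.24 to 32.7 CPM in anti-CD4 tumours and at 3.91 to 25.7 CPM in PBS tumours (0.35). The wider range belonged to the fast form. The small muscle protein Smpx was at 0.828 to 4.65 CPM in anti-CD4 tumours and at 0.782 to 4.59 CPM in PBS tumours (0.16).

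Calcium handling genes overlapped between the groups as well. Atp2a1, the calcium pump of fast fibres, stood at 76.0 to 431 CPM with a median of 164 in anti-CD4 tumours and at 49.9 to 344 CPM with a median of 128 in PBS tumours, a log2 fold change of 0.41 (95% interval -0.78 to 1.59). Its highest tumour was anti-CD4 tumour 4 and its lowest PBS tumour 3. The calcium release channel Ryr1 was at 63.3 to 269 CPM in anti-CD4 tumours and at 48.8 to 266 CPM in PBS tumours (0.14). The voltage sensor that opens it, Cacna1s, was at 10.96 to 51.9 CPM in anti-CD4 tumours and at 7.60 to 42.8 CPM in PBS tumours (0.28). These partners shared their highest tumour, anti-CD4 tumour 4, and their lowest, PBS tumour 3. Casq1, which stores calcium in the sarcoplasmic reticulum, was at 3.16 to 15.8 CPM in anti-CD4 tumours and at 1.98 to 11.3 CPM in PBS tumours (0.35). Pvalb, which binds calcium in the cytoplasm, was at 3.52 to 23.8 CPM in anti-CD4 tumours and at 3.20 to 27.6 CPM in PBS tumours (0.04). All of them had adjusted p-values of 0.687 or more.

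Of the metabolic and turnover genes, Mb, myoglobin, the oxygen store of muscle, had the largest positive fold change of all members. It was at 6.77 to 18.4 CPM with a median of 10.8 in anti-CD4 tumours and at 2.08 to 14.2 CPM with a median of 6.87 in PBS tumours, with a fold change of 0.65 on the log2 scale (SE 0.46, adjusted p = 0.367). Anti-CD4 tumour 4 stood apart at the top, and 3 of the PBS tumours exceeded the lowest anti-CD4 tumour. Ckm, muscle creatine kinase, which restores ATP, was at 32.9 to 205 CPM in anti-CD4 tumours and at 23.5 to 184 CPM in PBS tumours (0.28). Pygm, which breaks down glycogen in muscle, was at 7.16 to 42.6 CPM in anti-CD4 tumours and at 4.12 to 36.8 CPM in PBS tumours (0.32). Eno3, the glycolytic enolase of muscle, was at 24.2 to 69.2 CPM in anti-CD4 tumours and at 18.1 to 59.7 CPM in PBS tumours (0.21). These 3 were highest in anti-CD4 tumour 4, and Ckm and Pygm covered a wider range than Eno3. Trim63, the ubiquitin ligase MuRF1 of muscle wasting, was at 3.31 to 7.63 CPM in anti-CD4 tumours and at 2.41 to 7.12 CPM in PBS tumours, with a log2 fold change of 0.12 (95% interval -0.50 to 0.74).

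Other muscle genes, in a list of 61 that hold further sarcomere, membrane and metabolic proteins of fibres, also gave no call. Of 57 tested, 0 were called, 46 fold changes were positive with a median of 0.22, and 39 exceeded the 90th percentile of within-group SD. The strongest of the list were Atp2a2, Tpm1 and Tpm3 (438.6, 228.8 and 95.2 CPM on average), which many cell types express, and their within-group SDs were 0.111, 0.084 and 0.104. Of 15 genes of muscle precursors and regeneration 9 were tested, 0 were called and 5 exceeded that percentile. The strongest were Mef2c, which other cells also express, at 47.4 CPM, the adhesion gene Ncam1 at 3.995 CPM and the perinatal myosin Myh8 at 2.73 CPM. Of 9 neuromuscular junction genes 7 were tested and 0 called, and the receptor subunits Chrnb1 and Chrna1 and the kinase Musk averaged 27.3, 6.02 and 4.03 CPM.

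Smooth muscle and pericyte genes gave 0 called of 11 tested, with Smtn, Cspg4 and Rgs5 highest at 86.0, 71.3 and 61.6 CPM. The sum over the 11 genes was 290.0 ± 43.6 CPM in anti-CD4 tumours and 272 ± 16.3 CPM in PBS tumours (SD, n = 6 each), and the highest tumour exceeded the lowest by 1.58 times. Smtn, Cspg4 and Rgs5 had within-group SDs of 0.149, 0.368 and 0.380, but 5 of the 11 genes exceeded the 90th percentile of SD. Among those 5, Myh11 was at 2.105 to 17.62 CPM in anti-CD4 tumours and at 2.969 to 12.22 CPM in PBS tumours (within-group SD 0.989). For adipocyte genes 0 of 11 tested were called and 9 exceeded the 90th percentile of SD, with Car3, Pnpla2 and Plin4 highest at 97.2, 55.9 and 48.6 CPM; Car3 is also a muscle gene. For nerve genes 0 of 8 were called, with Pmp22, Mbp and Cnp highest at 71.5, 28.8 and 20.02 CPM. Heart genes were weak, with Ryr2, Tnnt2 and Mybpc3 at 3.02, 1.03 and 0.760 CPM, and so were skin genes, with 0 called of 3 tested and Trp63, Krt10 and Sbsn at 2.01, 1.015 and 0.475 CPM.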

How the data were processed

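Per the labels' protocols, ribosomal and globin RNA were depleted from the RNA of 12 tumours before sequencing of 100-base read pairs. Tools listed in the submitters' processing notes are kallisto, without a version, and bcl2fastq 2.20.0.422, with build GRCm38.p6. A table of estimated counts per gene symbol was deposited by the authors; which transcript annotation, strand setting or filter was used is not stated in the labels. Groups came from the treatment labels. Of 35999 names, 35973 matched GENCODE M21 (GRCm38), the source of coordinates, overlaps and exon lengths.

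Estimated counts were rounded, filtered with filterByExpr of edgeR 4.0.16 (R 4.3.3), scaled by TMM and tested with the quasi-likelihood F test with robust estimates and no covariate. The threshold for a call was 0.05 after Benjamini-Hochberg adjustment over all 17940 tested, and all adjusted p-values come from this test unless another tool is named. SEs are approximate, taken as the size of the fold change divided by the root of the F statistic, and the biological coefficient of variation came to 0.193. CPM are TMM-scaled, the log2 scale adds a prior count of 2, and levels of different genes were compared per kilobase of merged exons. Within-group SDs pool the 6 tumours of each group. The fitting script was tested on simulated data. As a check for repeated libraries, the 30 pairs of tumours within a group were compared, and chi-square over its degrees of freedom ran from 8.01 to 61.1.

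Alternatives were RLE and upper quartile scaling, DESeq2 1.42.0, limma 3.58.1 voom with sample weights, other filters, a replicate block, the library total as a covariate, and leaving out each tumour. The members and gene lists were chosen with earlier results of these data known. All members were named, and of each other list the called genes and the 3 with the highest mean CPM. Adipoq, Krt1, Myh6, Myl7, Msln, Upk3b, Wt1, Krt8, Krt18, Krt19, Pdpn, Mstn, Myod1, Myog, Pax7, Myh3, Myh11, Casq2 and the promoters of Myh4 and Myh7 were chosen after their values were seen. Protein sequences are not used here.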

Additional observations from a re-analysis of the deposited data

Results flagged for a closer look

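Of 68 groups of 6 values examined for a tumour far from the others, 1 had one, where chance gives about 1 in 20. Myoglobin (Mb) in anti-CD4 tumour 4 was at 18.39 CPM, while the other 5 anti-CD4 tumours were at 6.77 to 10.9 CPM. The gap to the next tumour was 0.642 of the group's range, above Dixon's 95% critical value for 6 samples.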

How the results depend on the processing

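No call of a member changed under RLE size factors, upper quartile scaling, DESeq2, no filter, a filter of 1 CPM in 6 tumours (which kept 29 members), library sizes without mitochondrial and haemoglobin genes, the log2 library total as a covariate or the replicate block. Limma voom with sample weights called 1 member (Tnnc1), and leaving out each tumour gave 0 to 1 (Tnnc1 without PBS tumour 1, adjusted p = 0.0272, against 0.0717 to 0.171 without any other tumour). The count over all genes, 947, moved by more than 1.5 times under several, to 504 with upper quartile scaling, 2494 with DESeq2, 6048 with limma voom, 523 with no filter and 5 with the library total as a covariate. Leaving out 1 tumour gave 66 (without anti-CD4 tumour 5) to 2640 (without PBS tumour 1). With the replicate number as a block it was 33, and the block called 0 members. Deviations of same-numbered tumours correlated at -0.409 to 0.229. No label says whether the numbers pair the tumours, and low correlations cannot exclude that they do.

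The difference in the log2 ratio of fast to slow genes, 0.23, was 0.81 with Mybpc1 left out of the slow list, an alternative chosen after seeing the data; removing its strongest gene changes the slow sum by construction. The median within-group SD and the summed level stayed within their spread under every alternative run. Fold changes of members near 0 changed sign often, with 19 of 32 doing so without anti-CD4 tumour 4, and none passed the threshold with its sign reversed. Under limma voom the reversed log2 fold changes were Actn3 -0.026, Ckm -0.0060, Myh1 -0.16, Myh4 -0.16, Tnnc2 -0.34, Tnnt3 -0.041, Neb -0.063, Ryr1 -0.15, Pvalb -0.37, Trim63 -0.027 and Smpx -0.21. Upper quartile scaling gave Myh1 -0.028, Tnnc2 -0.037 and Pvalb -0.0072. Tnnc2 was -0.0053 under the stricter filter and -0.0034 without mitochondrial and haemoglobin genes. The library total as a covariate gave Tnnt1 0.13, Ttn 0.77 and Xirp2 0.53, and the block gave Ttn 0.054.

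Leaving out each tumour in turn, the lowest and highest log2 fold changes were Actn2 -0.046 and 0.36, Actn3 -0.0038 and 0.68, Ckm -0.10 and 0.71, Myh1 -0.33 and 0.68, Myh2 -0.0029 and 0.40, Myh4 -0.16 and 0.66, Tnnc2 -0.27 and 0.39 and Tnni2 -0.14 and 0.39. They were Tnnt1 -0.22 and 0.012, Tnnt3 -0.17 and 0.66, Ttn -0.34 and 0.43, Neb -0.11 and 0.51, Ryr1 -0.17 and 0.49, Pvalb -0.30 and 0.51, Des -0.041 and 0.39 and Mybpc1 -0.075 and 0.53. For the remaining genes with a reversal they were Mybpc2 -0.026 and 0.58, Xirp2 -0.29 and 0.10, Trim63 -0.037 and 0.28, Smpx -0.16 and 0.54, Eno3 -0.026 and 0.45, Pygm -0.071 and 0.75 and Cacna1s -0.022 and 0.57. The cause of these changes was not tested. Depth limits the slow genes Tnnc1, Tnni1, Tnnt1 and Myh7 most, with 14 to 66.1 counts per tumour.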

Other observations

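Among muscle genes outside the 32, Mstn, myostatin, a secreted brake on muscle growth, was at 0.149 to 5.33 CPM in anti-CD4 tumours and at 0.293 to 3.92 CPM in PBS tumours, with a within-group SD of log2 CPM of 1.70, and anti-CD4 tumour 4 and PBS tumour 5 were the highest of their groups. The regulators Myod1 and Myog, which drive the formation of muscle cells, stayed under 1.6 CPM in all 12 tumours, and Myog was highest in anti-CD4 tumour 3 at 1.37 CPM. Pax7, the marker of muscle stem cells, was at 0.0170 to 0.477 CPM in anti-CD4 tumours and at 0.0245 to 0.367 CPM in PBS tumours, and the embryonic myosin Myh3 was at 0.0576 to 0.484 CPM in anti-CD4 tumours and at 0.0491 to 0.256 CPM in PBS tumours.

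The carbonic anhydrase gene Car3, of fat and slow muscle, was at 15.2 to 341 CPM in anti-CD4 tumours and at 46.4 to 187 CPM in PBS tumours.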
